A study of Mus musculus with 2 samples.

Results

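The regions described here are narrow, strong sites of RNA polymerase II (Pol II) in mouse embryonic fibroblasts, cultured cells from the connective tissue of embryos. They were chosen by rule from the reads of 2 chromatin immunoprecipitation sequencing (ChIP-seq) libraries, in which DNA bound by a protein is pulled down with an antibody and sequenced. Reads placed at 1 site of chromosomes 1 to 19 (build mm8) were collapsed to 1 per start and strand, moved 60 bp downstream and counted in windows of 500 bp. Windows with at least 12 reads in library B4 and at least 7 in library B6 were joined over at most 1 window, which gave 41704 regions. Of these, 4305 were at most 1.5 kb wide and had a highest window of at least 2 reads per 1000000 (RPM, the mean of both libraries), and these are the focal regions. The windows called in both libraries were 3.01% of the windows with a read, and 24.1% of the regions reached 2 RPM. Both shares are set by the rule, so heights and widths are given as a description with no test.

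Both libraries belong to 1 group of cells grown in DMEM with 10% serum, and the labels name no treatment, genotype, age or separate culture. Both used the antibody 8WG16 against Pol II. The labels give amplified fragments of 150 to 350 bp for B4 and of 150 to 300 bp for B6, with 18 cycles of amplification in each, and a different run for each. B4 held 17548967 collapsed nuclear reads and B6 held 10941174, with 10.1% and 4.54% of the alignments removed as repeated starts. Background was 0.194 RPM per window in B4 and 0.118 RPM in B6. Identical starts in both libraries on these chromosomes numbered 259050, against 207106 to 220816 after moving 1 library by 20 to 50 bp, and the excess was 0.428% of the B6 starts, so the libraries were treated as separate samples. The spread between them may be technical, and gel slice, run and sample cannot be told apart. Neither input DNA nor a mock pull-down was analysed here.

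Pol II transcribes protein-coding genes and many noncoding RNA genes, among them most genes of small nuclear RNAs. At many genes of animal cells it gathers just downstream of the start site and pauses before it moves into the gene, so a sharp peak at the start and a low level along the gene are a common pattern. It also loads at enhancers and at very short genes, which give narrow peaks with little signal beside them. The antibody 8WG16 was raised against the repeated tail of the largest subunit and prefers the tail with little phosphorylation, the form found mostly near promoters. No annotation of mm8 was used here, so the regions are named by position only, and neither a gene nor a promoter is assigned to any of them.

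The focal regions ranged widely in height, with a small number far above the rest. The mean RPM of the highest window ran from 2.002 to 36.7 with a median of 3.08. Under 3 RPM lay 2034 regions (47.2%), at 5 RPM or more 649 (15.1%) and at 10 RPM or more only 24. In B4 the highest window held 9 to 422 reads with a median of 48, a median of 14.1-fold over background. In B6 it held 9 to 540 reads with a median of 39, a median of 30.2-fold over background. In 4 regions the highest window by mean RPM was itself under the minimum count of a library and was bridged by its neighbours. By width, 776 regions spanned 500 bp, 1886 spanned 1000 bp and 1643 spanned 1500 bp.

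**Figure D1:**
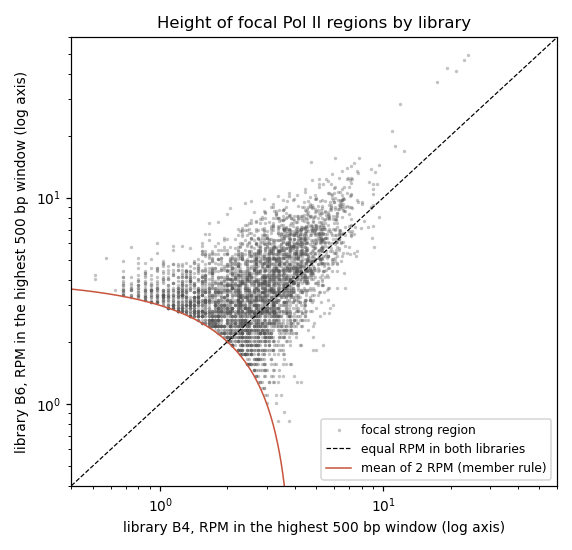
Height of each of the 4305 focal regions, as RPM in its highest 500 bp window, in library B4 (horizontal, log axis) and library B6 (vertical, log axis), with the line of equal RPM and the threshold of the member rule. Most points lie above the line of equal RPM, and the few regions of 10 RPM or more stand apart at the upper right.

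Most focal regions were higher in B6: 3230 (75.03%) had more RPM there and 1075 had more in B4. The median ratio of B6 to B4 was 1.38, with 10% of regions under 0.767 and 10% over 2.68. A ratio over 2 was found at 956 regions and one under 0.5 at 55. B6 also had the lower background per window. At the edge of the rule, the lowest focal region (chromosome 16 from 90823001 to 90824500) had 2.45 RPM in B4 and 1.55 RPM in B6, a mean of 2.002. The narrow region just under the threshold (chromosome 15 from 101104001 to 101104500) had 0.798 and 3.20 RPM. Within 5% above the height threshold lay 299 focal regions, and within 5% below it 322 narrow ones. Another 1185 regions reached 2 RPM but were 2 kb wide, just past the width limit, with a median height of 3.60 RPM against 3.39 RPM for the focal regions of 1.5 kb.

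The strongest focal region was on chromosome 11 from 87264501 to 87266000. Its highest window had 24.0 RPM in B4 (422 reads) and 49.4 RPM in B6 (540 reads), or 36.7 ± 17.9 RPM (SD, n = 2). This rank holds with 1 read counted per start. With all reads counted, the region had 38.5 and 97.7 RPM, its left neighbour 44.5 and 100.6 RPM, and a region on chromosome 14 from 39187001 to 39188000 245.7 and 308.6 RPM. A neighbour 4 kb to the left, from 87259501 to 87260500, was nearly as high, with 23.0 RPM in B4 and 46.5 RPM in B6. To the right followed a region from 87278501 to 87279500 with 11.9 and 28.4 RPM, and one from 87287501 to 87288500 with 4.67 and 9.32 RPM. These 4 form a group with gaps of 4000, 12500 and 8000 bp that hold no other region. The order of the 4 by height was the same in both libraries, and each had more RPM in B6.

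**Figure D2:**
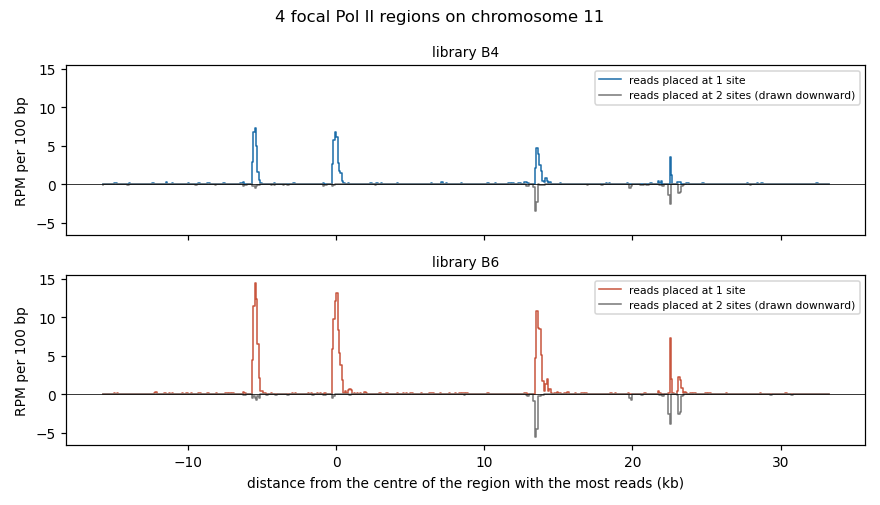
RPM per 100 bp of library B4 (top) and library B6 (bottom) across the group of 4 focal regions on chromosome 11, by distance from the centre of the strongest in kb. Reads placed at 1 site are drawn upward and reads placed at 2 sites downward. Both libraries show the same 4 narrow peaks with nearly empty sequence between them, and the right pair also has a peak of reads placed at 2 sites.

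Reads placed at 2 sites, which were not used for the calls, were unevenly spread over this group. The strongest region had 7 such alignments in B4 and 8 in B6, and its left neighbour had 22 and 31. The third had 113 and 129, and the fourth 100 and 113, more than its 96 collapsed reads in B4. Their part in the levels of these regions was not tested.

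Other sites of the 10 highest lay on chromosomes 4, 1, 8, 14 and 9 and elsewhere on chromosome 11. Chromosome 4 from 131541501 to 131543000 had 21.1 RPM in B4 and 41.3 RPM in B6. Chromosome 1 from 72159501 to 72161000 had 19.3 and 42.3 RPM. Chromosome 11 from 68889001 to 68890500 had 17.4 and 36.4 RPM. In each of these the B6 level was more than 1.5 times the B4 level. The next was chromosome 4 from 116700001 to 116701000, with 10.9 RPM in B4 and 21.1 RPM in B6. Chromosome 8 from 11557501 to 11559000 had 12.4 and 16.9 RPM. The last 2, chromosome 14 from 39187001 to 39188000 (11.2 and 17.7 RPM) and chromosome 9 from 35054501 to 35055500 (9.52 and 14.3 RPM), had the most repeated starts of the 10, as given below with their strand shape.

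A protein bound at a point leaves a strand pattern in ChIP-seq: reads on the plus strand start on its left, reads on the minus strand start on its right, and the distance between them (the lag) follows the length of the sequenced fragments. The rule moved each read 60 bp downstream on its strand before counting, which favours regions and summits with such an offset, so the lag and the strand profile are given as a description with no test. The most frequent lag, as the mean of both libraries, was 90 bp with a move of 60 bp and with one of 45 bp. To avoid placing a library by its own noise, its 5′ ends were lined up on the summit found in the other library. The summit was the highest point of the shifted reads smoothed with a Gaussian of 50 bp SD.

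The focal regions had this pattern clearly. In B4 the plus-strand ends were highest 50 bp left of the summit and the minus-strand ends 50 bp right of it. In B6 the tops were 50 bp left and 30 bp right. Each strand fell steeply on its inner side and slowly on its outer side. The plus strand of B4 needed 160 bp to the right but 260 bp to the left to fall to 25% of its top, and that of B6 needed 140 bp and 320 bp. The minus strand was the mirror image, with 140 bp to the left and 260 bp to the right in B4 and 120 bp and 360 bp in B6.

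**Figure D3:**
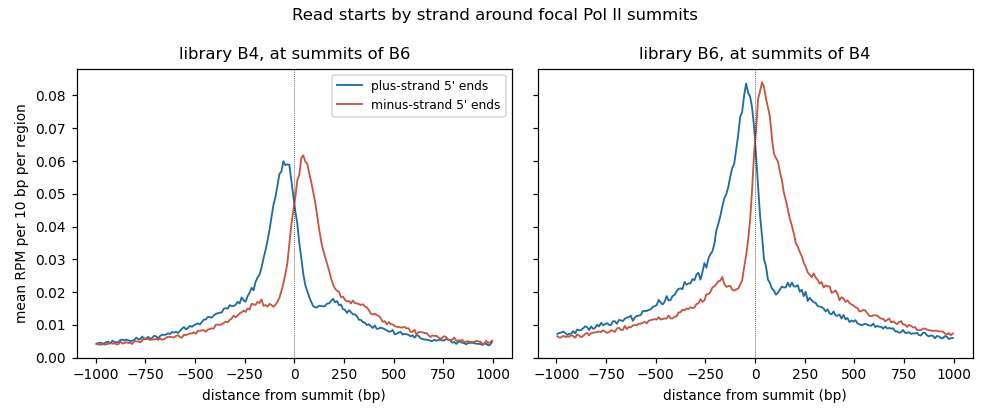
Mean RPM of plus-strand and minus-strand 5′ ends per 10 bp around the summits of the 4305 focal regions, for library B4 at summits of B6 (left) and library B6 at summits of B4 (right). The strands peak on opposite sides of the summit, fall steeply toward each other and slowly away, and each has a low second maximum at 170 to 190 bp on the far side of the summit.

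Beyond the summit each strand passed a dip and then a low second maximum. On the plus strand the dip was at 110 bp and the second maximum at 190 bp in both libraries, with 29.7% of the top in B4 and 27.3% in B6, up from 25.9% and 23.9% in the dip. On the minus strand the second maximum was at 170 bp on the left, with 28.4% of the top in B4 and 29.1% in B6. The dip and the rise had the same position in both libraries to within the 20 bp bins.

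The lag with the most plus-minus pairs was 85 bp in B4 and 95 bp in B6, 90 ± 7.07 bp (SD, n = 2). Pairs were counted in steps of 5 bp within 300 bp of the summit, and the counts were nearly flat around the top. The lag of single regions, the median minus-strand end less the median plus-strand end, had a median of 88.5 bp in B4 and 103 bp in B6, 95.8 ± 10.3 bp (SD, n = 2). The middle 50% of regions lay between 55.5 and 114 bp in B4 and between 63.5 and 136.5 bp in B6. Of 3684 regions with at least 10 ends per strand in each library, 2253 (61.2%) had the larger lag in B6. The median difference was 17.5 bp. Across these regions the lags of the libraries had a weak correlation (Pearson's r 0.33, Spearman's rho 0.28). The points share the summit positions and the sequence around them, so no p-value is attached. The library with the longer lag, B6, has the narrower gel slice in its label, up to 300 bp against 350 bp. Both labels also give a sonication mean of 500 bp and shearing to 50 to 200 nt. The part of the gel slice or of the shearing was not tested.

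**Figure D4:**
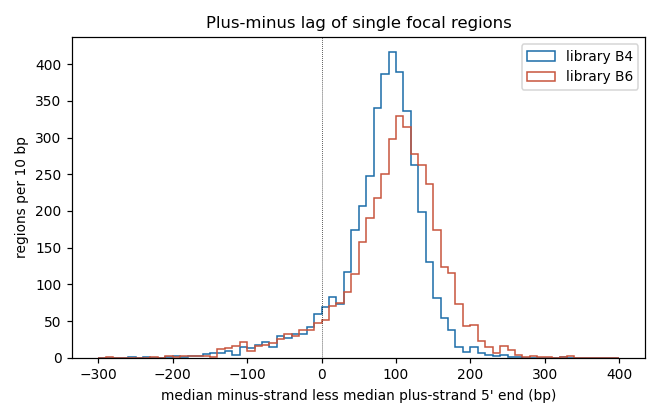
Number of focal regions by plus-minus lag in bins of 10 bp, for the 4009 regions with a value in library B4 and the 3945 in library B6. The bulk of B4 lies between 55.5 and 114 bp and that of B6 between 63.5 and 136.5 bp, and both have a tail below 0.

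A tail of regions had a lag below 0, that is, minus-strand ends left of plus-strand ends: 346 of 4009 (8.63%) in B4 and 353 of 3945 (8.95%) in B6. These were rarer among high regions, at 5.70% in B4 and 5.24% in B6 of the regions of 5 RPM or more, against 11.1% and 12.6% of those under 3 RPM. Their share also went with the distance between the summits of the libraries. The summits of the libraries were a median of 40 bp apart and at most 50 bp apart at 2468 regions (57.3%). Among those 2468, 2.20% in B4 and 2.09% in B6 had a lag below 0, and the median lags were 94 and 111 bp. At 1078 regions (25.04%) the summits were over 150 bp apart, and there 29.5% of lags in each library were below 0, with medians of 46.2 and 48 bp. Since the lag is read around the other library's summit, a summit placed elsewhere in the region also moves the lag.

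In part of the regions the smoothed reads had more than 1 maximum, here counted as summits. Counting maxima of at least 50% of the top with a prominence of at least 25% of it, 1422 regions (33.0%) had more than 1 in B4 and 1527 (35.5%) in B6. Only 400 (9.29%) had at least 2 that matched between the libraries within 75 bp and lay at least 150 bp apart. Their median separation was 380 bp, with the middle 50% between 305 and 520 bp. Most regions with more than 1 summit in a library thus had no matched pair in the other. How many maxima, and how many matches, the scatter of few reads would give was not tested. The 400 regions had shorter lags (medians of 68.2 bp in B4 and 81.8 bp in B6) than the others (90 and 105 bp), with 15.9% and 16.7% below 0.

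The mean peak of shifted reads was 191 bp wide at 50% of its height in B4 and 204 bp in B6, 197 ± 9.54 bp (SD, n = 2). In the median region 46.3% of the reads within 750 bp of the summit fell within 150 bp of it in B4 and 45.8% in B6. For regions that reached 2 RPM but were over 1.5 kb wide (5729 regions), the medians were 34.6% and 33.6% and the mean peak was 208 and 220 bp wide. The median lag in the wide regions was 76.5 bp in B4 and 89.2 bp in B6, with 15.4% and 14.4% of lags below 0. Width was part of the rule, so these values are given side by side with no test. Within the focal regions, those of 500 bp had a median of 55.2% within 150 bp in B4 and those of 1500 bp 41.6%.

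The lags of the highest regions varied. The 649 regions of 5 RPM or more had median lags of 90 bp in B4 and 108 bp in B6, near those of all focal regions, but several of the regions named above had shorter ones. In the group on chromosome 11 the strongest region had a lag of 47.5 bp in B4 and 52.5 bp in B6. Its left neighbour had 54.5 and 44 bp, the third 55.5 and 21 bp and the fourth 51 and 42 bp. The regions on chromosome 4 from 131541501 (53.5 and 56 bp) and on chromosome 1 (56.5 and 55 bp) were close to these. These 6 lie below the medians of 88.5 and 103 bp in both libraries. So do chromosome 14 from 39187001 (37.5 and 34.5 bp) and chromosome 9 from 35054501 (30.5 and 33.5 bp). Chromosome 11 from 68889001, with 84 and 94 bp, was a little below the medians. By contrast, chromosome 4 from 116700001 had 89.5 and 121 bp, and chromosome 8 had 129 and 146 bp. With all reads kept in place of 1 per start, the strongest region had a lag of 27.5 bp in B4 and 36 bp in B6, the left neighbour 41 and 10.5 bp and the region on chromosome 1 56.5 and 58 bp. The third of the group changed most in B4, from 55.5 to 109 bp, and had 38.5 bp in B6.

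Repeated starts set a handful of regions apart. The median focal region had 1.17 reads per distinct start in B4 and 1.06 in B6, and 90% had at most 1.26 and 1.12. Only 6 regions had over 2 in both libraries. Chromosome 14 from 39187001 had 5427 reads on 212 starts in B4 and 3948 on 209 in B6, which is 25.6 and 18.9 reads per start. Chromosome 12 from 3109501 to 3110500 had 9.10 and 6.17, and chromosome 9 from 35054501 had 5.93 and 4.39. Chromosome 9 from 24292001 to 24293000 had 8.62 and 3.29, and chromosome 4 from 69864001 to 69865000 had 3.50 and 2.77. The sixth was the region on chromosome 11 from 87259501, with 2.10 and 2.16. The first 5 stand well apart from the rest in this ratio.

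Those 5 regions also had short lags close to the read length of 36 bases. Chromosome 14 had a lag of 37.5 bp in B4 and 34.5 bp in B6, chromosome 9 from 24292001 had 36.5 and 37.5 bp, and chromosome 4 from 69864001 had 38 and 35 bp. Chromosome 9 from 35054501 had 30.5 and 33.5 bp, and chromosome 12 had 24.5 and 28.5 bp. Lags of 30 to 40 bp in both libraries were found at only 12 focal regions, and 4 of these 5 are among them. Reads placed at 2 sites were also many at 4 of the 5, with 228 and 209 on chromosome 14, 249 and 218 on chromosome 9 from 35054501, 83 and 61 on chromosome 4 and 54 and 47 on chromosome 12, but only 6 and 8 on chromosome 9 from 24292001. When regions were called anew with all reads kept, 3844 met the rule and their most frequent lag was 35 bp. It was 97.5 bp when regions with over 2 reads per distinct start in both libraries were left out of these, an alternative chosen after the data were seen.

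The strands were balanced at nearly all focal regions. The share of plus-strand reads had a median of 50% in each library, and 90% of the regions lay between 40.5 and 59.1% in B4 and between 39.1 and 61.1% in B6. An exact two-sided binomial test per region, with Benjamini-Hochberg adjustment over all 41704 regions, found 1 focal region unequal to the same side in both libraries, against a background of 0.0024% of all regions, which is the same 1 region. It found 1 focal region in B4 and 2 in B6, where 0.00959% of all regions passed. At an unadjusted p under 0.05 there were 125 in B4 (2.90%) and 184 in B6 (4.27%). Of the 13 that passed in both libraries, 12 leaned to the same strand and 1 to opposite strands. Neither single-library share is above what that threshold allows without any inequality. The number that passed in both was not compared with what it allows, so small shared inequalities are left undecided. The unadjusted share over all regions is not given here.

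That region is the fourth of the group on chromosome 11, from 87287501 to 87288500. It had 22 plus-strand and 74 minus-strand reads in B4, a plus share of 22.9% (95% Clopper-Pearson interval 14.95 to 32.6%). In B6 it had 28 and 116, a share of 19.4% (13.3 to 26.9%). The adjusted p was 0.00399 in B4 and 2.65e-09 in B6 by the exact binomial test. Its reads placed at 2 sites were also more often on the minus strand, with 40 plus and 60 minus in B4 and 41 and 72 in B6. Counted together with them the plus share was 31.6% in B4 and 26.8% in B6. With reads placed at 2 sites added throughout, 0 focal regions passed the exact binomial test in both libraries, and 16 had an unadjusted p under 0.05 in both. With library B6 left out, 0 passed and 93 did unadjusted. The intervals cover counting error only.

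Away from the peak, the level beside focal regions was low. Flanks were measured from 1 to 5 kb beyond each edge, where neighbouring regions may lie, and the width limit of the rule bears on how near they lie. Reads in both flanks together were above the library's background at 2872 focal regions in both libraries (66.7%), by an exact one-sided Poisson test adjusted over all regions. The background for this call is 88.2% of all 41704 regions. In B4 alone 2942 focal regions passed (68.3%, background 89.1%) and in B6 alone 3756 (87.2%, background 94.6%). The share was 91.6% of the wide regions of 2 RPM or more and 89.4% of the 27610 narrow regions under 2 RPM, and the differences between these shares were not tested. The median flank of a focal region held 1.45-fold the background in B4 and 2.95-fold in B6, against 2.16-fold and 5.76-fold for the wide ones and 2.20-fold and 6.05-fold for the narrow weak ones. In B4, 565 focal regions (13.1%) had flanks below background, and in B6 217 (5.04%).

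Many focal regions stood alone. The median gap from a focal region to the nearest other region was 8000 bp, against 2000 bp for wide regions of 2 RPM or more and 2500 bp for narrow weak ones. Another region lay within 5 kb of 1759 focal regions (40.9%), against 69.9% of all regions. At least 20 kb of uncalled sequence on each side surrounded 1262 focal regions (29.3%), against 11.8% of all regions, and 255 had at least 100 kb. The joining of windows fixes the smallest gap, and no test of these distances was made.

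Measured from the mean height of the summit window, the flanks were low and nearly flat. From 1 to 5 kb they stood at 4.87% of the summit in B4 and 8.73% in B6 once background was removed, 6.80 ± 2.73% (SD, n = 2). From 5 to 10 kb the levels were 5.03% and 8.84%, and from 10 to 20 kb 5.28% and 9.11%. No decline with distance was seen over this range. Without windows called in both libraries, there was a decline, from 2.70% and 6.34% at 1 to 5 kb to 2.08% and 5.43% at 10 to 20 kb. At the 1262 regions with no other region within 20 kb the level was 1.14% in B4 and 3.09% in B6 at 1 to 5 kb and 0.257% and 2.02% at 10 to 20 kb.

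Many focal regions had more reads on 1 side than on the other. By an exact two-sided binomial test of the left against the right flank from 1 to 5 kb, adjusted over all regions, 1630 (37.9%) leaned the same way in each library. The background is 28% of all regions, and the share was 50.4% of the wide regions of 2 RPM or more and 21.7% of the narrow weak ones. The difference between these shares was not tested. Of 1634 focal regions unequal in both libraries, 4 leaned to opposite sides. The fuller side was toward higher coordinates at 828 regions and toward lower at 802. In B4 alone 1877 passed (43.6%, background 35.1%) and in B6 alone 2691 (62.5%, background 44.3%).

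The side of one library was then read in the other. At the 2691 regions unequal in B6, B4 had more reads on the same side at 2573 (95.6%, 95% Wilson interval 94.8 to 96.3%). At the 1877 unequal in B4, B6 had more on that side at 1832 (97.6%, 96.8 to 98.2%). Both libraries share the sequence of the flanks, and how far reads can be placed there was not measured. A neighbouring region in a flank was called only where both libraries reached the minimum count, so part of this agreement follows from the rule. The intervals treat regions as independent, although focal regions near each other can share flank reads.

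Lined up by the side taken from the other library, the mean level dropped across the summit from the fuller to the other side. The fuller side at 2.5 kb from the summit had 2.41-fold the background in B4 and 7.15-fold in B6, and the other side 1.14-fold and 2.10-fold. The fuller side had 2.16-fold and 6.37-fold at 1.5 kb, and at 5 kb it was 2.67-fold and 8.52-fold, higher than nearer the summit. Beyond the flanks used to choose the side, it was 2.11-fold and 5.86-fold at 10 kb and 1.96-fold and 5.47-fold at 20 kb. The other side had its low point near 5 kb (1.09-fold and 1.83-fold) and was 1.55-fold and 3.52-fold at 20 kb. Beyond 5 kb both sides drew closer without meeting within 20 kb, while from 1 to 5 kb they moved apart. The windows next to each edge were under the minimum count in at least 1 library by the rule, which limits the level near the summit. The side was chosen from reads 1 to 5 kb beyond the edge. The rise to 5 kb and the widening difference thus partly follow from these choices.

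**Figure D5:**
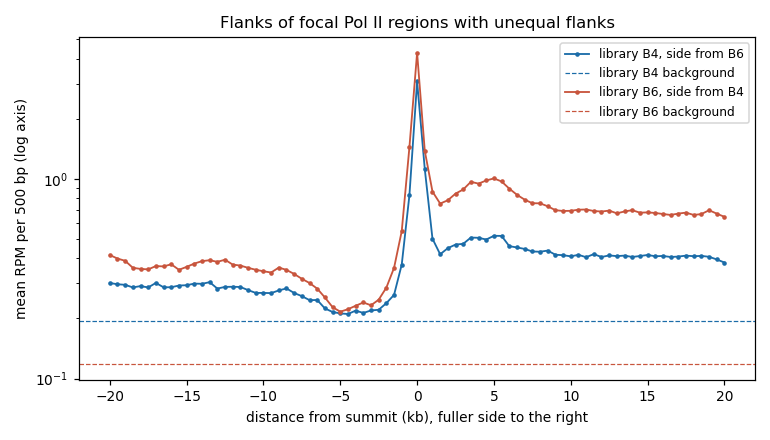
Mean RPM per 500 bp (log axis) by distance from the summit in kb, with the fuller side to the right, for focal regions with unequal flanks. Library B4 (2691 regions, side from B6) and library B6 (1877 regions, side from B4) both show a narrow summit, a higher plateau on the right out to 20 kb and a low point near 5 kb on the left, with each library's background as a dashed line.

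Unequal flanks were found most often beside a neighbouring region. With another region within 5 kb, 59.0% of 1759 focal regions had unequal flanks in both libraries, and 981 of those 1038 (94.5%) had the nearest region on the fuller side. A region less than 5 kb away lies at least partly in the tested flank, so its own reads entered these counts. The shares beside a neighbour thus partly follow from the rule that called it. With no other region within 5 kb, 592 of 2546 (23.3%) were still unequal, and with none within 20 kb 236 of 1262 (18.7%). Flanks above background in both libraries were found at 95.5% of those with such a neighbour, 46.8% of those with none within 5 kb and 36.8% of those with none within 20 kb. The shares over all regions at the same distances are not given here. Whether any of these shares is particular to focal regions therefore cannot be told.

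The reads closest to the summit did not follow the flanks in both libraries. From 150 to 750 bp, B4 had more reads on the fuller side at 58.4% of the 2691 regions (95% Wilson interval 56.5 to 60.3%), with 1.502 RPM against 1.13 RPM. B6 had more there at 47.6% of the 1877 (45.4 to 49.9%), with 1.83 RPM against 2.001 RPM. The lower of 2 matched summits lay on the fuller side at 106 of 180 regions (58.9%, 51.6 to 65.8%) with summits from B6 and sides from B4, and at 106 of 246 (43.1%, 37.1 to 49.3%) with summits from B4 and sides from B6. The libraries gave opposite directions in each pair, so no side is given for the shoulder of the peak.

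Single regions show how unequal the read counts of the flanks could be. On chromosome 9 from 3038001 to 3038500, the left flank held 358 reads in B4 and 333 in B6 and the right flank 2 and 0. On chromosome 2 from 84878001 to 84878500, the left flank had 144 and 262 reads and the right none in either library. Both had the next region 1000 bp to the left. On chromosome 11 from 94445501 to 94447000, the left flank was empty in both libraries and the right held 94 and 126 reads. On chromosome 17 from 32901501 to 32903000, the left flank had 2 reads in B4 and 1 in B6 against 97 and 102 on the right. On chromosome 4 from 132367001 to 132368000, the left had 105 and 85 and the right 0 and 1. Each of these 5 had another region within 2000 bp on its fuller side. Background predicts 54.6 reads in B4 and 20.7 in B6 for both flanks together. The emptier flanks, with at most 2 reads in B4 and 1 in B6, thus lay far below background. How far reads can be placed there was not measured. The region on chromosome 9 also had 30 and 22 alignments placed at 2 sites, and 2.26 and 1.74 reads per distinct start. Windows without reads were common around some of them: of the 76 windows from 1 to 20 kb around these regions, between 41 and 68 had any read in either library.

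The 5 focal regions with the emptiest surroundings had still fewer windows with reads. On chromosome 8 from 19784501 to 19785000, a window of 2.91 RPM in B4 and 4.20 RPM in B6 had only 13 and 11 reads in 38 kb of flanks, where background predicts 259 in B4 and 98.2 in B6. Only 16 of its 76 flanking windows had a read. The background rate was taken from windows with a read in either library, so windows without reads do not lower the prediction. Chromosome 12 from 3109501 had 31 and 6 flank reads with 27 such windows, and chromosome 8 from 20438501 to 20439500 had 28 and 37 with 25. Reads placed at 2 sites numbered 44 and 42, 54 and 47, and 61 and 48 at these 3 regions. They numbered 0 on chromosome 3 and 8 and 14 on chromosome 2. Chromosome 3 from 106813001 to 106813500 had 51 and 20 flank reads with 35 windows, and chromosome 2 from 150054001 to 150054500 had 45 and 27 with 33.

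Among the 10 highest regions, 5 had flanks that were unequal the same way in each library, against 37.9% of focal regions and 28% of all regions. So few regions cannot set the highest apart from these shares. The 2 leading regions on chromosome 11 lie in each other's flanks, with 435 reads to the left and 19 to the right of the strongest in B4 and 575 and 11 in B6, and their ratios of 33.7 and 29.0 (reads of both libraries summed) count the neighbour. Chromosome 4 from 131541501 had 27 reads on the left and 274 on the right in B4 and 17 and 216 in B6, with another region 2000 bp to the right. Chromosome 11 from 68889001 and chromosome 8 each had another region 1000 bp to the left, with 249 against 28 reads and 314 against 50 reads in B4. The region on chromosome 1 had few reads on both sides, with 27 and 21 reads in B4 and 3 and 21 in B6, and so did chromosome 14, with 23 and 15 in B4 and 8 and 6 in B6.

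Some focal regions lay close together. Another focal region was within 20 kb of 788 (18.3%), in 361 groups, of which 51 had 3 or more members and 11 had 4 or more. Groups of 5 were found on chromosome 3 from 90306001 to 90341000, chromosome 4 from 41902001 to 41945000, chromosome 7 from 11849501 to 11879000 and chromosome 7 from 141264501 to 141307500, with heights between 2.07 and 5.72 RPM. The group on chromosome 11 that holds the strongest region had higher levels, from 6.998 to 36.7 RPM. Across the 19 chromosomes focal regions made up between 8.11% of the regions on chromosome 15 and 12.3% of those on chromosome 13. Of the regions that reached 2 RPM, between 38.0% on chromosome 11 and 54.1% on chromosome 13 were focal.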

How the data were processed

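Pol II was measured by ChIP-seq in 2 libraries of 1 group of mouse embryonic fibroblasts. Per the file headers, the authors ran Bowtie (-e 70, -l 36, at most 2 sites per read) against mm8. The sources used here do not give its version. What the authors deposited is a list of signed offsets, 1 per alignment, without peaks or scaled signal. Offsets were taken as left-most bases counted from 0 and reads as 36 bases long. RPM means reads per 1000000 collapsed nuclear reads (chromosomes 1 to 19, X and Y). Where all reads were counted, it means reads per 1000000 nuclear alignments placed at 1 site, without collapsing. Background was the mean over windows with a read in either library, on chromosomes 1 to 19, X and Y. Windows at or over the library's minimum count were left out. Flanks (1 to 5 kb) and strands were tested per region and library by exact binomial or Poisson tests. Benjamini-Hochberg adjustment was over all 41704 regions, with a threshold of 0.05. The tests were also run on counts simulated from the same binomial and Poisson models. That run cannot show how they behave where reads vary more than these models allow. The text names the 10 highest regions, the 5 with the most unequal flanks, the 5 with the emptiest flanks from 1 to 20 kb and those unequal by strand; group members, sites with many repeated starts and those at the thresholds were chosen after their values were seen. The member rule, the tests and most alternatives were chosen with earlier results of these data known. A GRCm38 gene table and promoter table were not used, since their build differs, and no sequence is printed. The work used matplotlib 3.10.9, SciPy 1.17.1, NumPy 2.4.6 and Python 3.11.15.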

Additional observations from a re-analysis of the deposited data

Results flagged for a closer look

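Reads placed at 2 sites entered none of the calls, and 276 focal regions (6.41%) held more than 3 such alignments in both libraries, above the limit that a count of 0 allows. Another 3258 held none in either library. The median lag was 78.5 bp in B4 and 95.5 bp in B6 at the 276 regions and 89 and 104 bp at those with none. At 17 regions such alignments outnumbered the collapsed reads placed at 1 site in both libraries. The shares over all regions are not given here for any of these counts. Whether they are particular to focal regions therefore cannot be told. Beside the sites named above, chromosome 17 from 3040501 to 3041000 had 216 in B4 and 164 in B6 against 109 and 89 reads placed at 1 site, and chromosome 11 from 3023501 to 3024000 had 211 and 161 against 39 and 25. With these alignments added to the calls, 4109 focal regions were found against 4305, and 0 regions were unequal by strand in both libraries against 1. Their part in the other results was not tested.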

How the results depend on the processing

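Of 94 recalculations, 66 stayed within the spread between the libraries (lag, peak width, flank level) or within 1.5 times the reported value (the others). The number of focal regions was 2271 at a minimum of 3 RPM, 2662 at a width of at most 1 kb and 7338 with window minimums of 18 and 11 reads, and 2001 to 3071 with 1 library left out. The most frequent lag was 35 bp with all reads kept (97.5 bp without regions of over 2 reads per distinct start), 100 bp with windows moved along by 250 bp, 80 bp at a width of at most 1 kb, 97.5 bp with the higher window minimums, 115 bp with ends within 500 bp and 82.5 bp with regions weighted equally. The peak width was 179.9 bp with all reads kept (187 bp without those regions), 176 bp with a shift of 45 bp, 745 bp around region centres, and 134 to 148 bp with 1 library left out, when each library is lined up on its own summit. The flank level was 10.9% with only adjacent windows joined, 10.6% with the higher window minimums, 2.82% for regions with no other within 5 kb, and 3.47 to 5.83% with 1 library left out. Unequal flanks were found at 20.05% of focal regions with flanks of 1 to 3 kb and 23.3% for those with no other region within 5 kb, and were 65.3% with flanks of 5 to 20 kb. The shares over all regions in these settings are not given here, and the 28% given above holds for flanks of 1 to 5 kb only. The longer flanks also hold more reads and can hold more neighbours. By the exact binomial test, unequal strands were found at 3 regions with all reads kept and at 0 with the higher window minimums or reads placed at 2 sites added (16 in each at an unadjusted p under 0.05), and at 0 to 1 with 1 library left out (93 and 82 unadjusted). Except where stated, the cause of these shifts was not tested. Alternatives with reads placed at 2 sites, regions extended at each end, left-out regions and regions with no near neighbour were chosen after seeing the data. No paired analysis was possible because both libraries belong to 1 group. Depth limits the tests per region, as the median highest window held 48 reads in B4 and 39 in B6.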
